A study of Mus musculus with 12 samples.

Results

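The comparison asked what the activating receptor variant CSF3R T618I did to open chromatin in mouse cells that carried an Asxl1 guide. CSF3R is the receptor for granulocyte colony-stimulating factor (G-CSF), and T618I is a variant of it that signals without the hormone. The 6 samples were chosen by their labels: 3 libraries of sgB2/T618I cells and 3 libraries of sgB2/Empty cells, out of 12 in the series. The other 6 libraries, sgNT/T618I and sgNT/Empty, were read at the same regions and genes in cells with the non-targeting guide. They also entered the merging of peaks, the choice of shared regions and the estimate of spread behind the tests. All groups were HoxB8 cells, an immortalized mouse bone marrow line kept immature by Hoxb8 while estrogen and stem cell factor are present. The sgB2/T618I cells carried the Asxl1 guide B2 and the vector pMICH-CSF3R-T618I, and the sgB2/Empty cells carried the same guide and pMICH-Empty. The sgNT/T618I and sgNT/Empty cells carried a non-targeting guide with those vectors. Estrogen had been removed for 48 h in every sample, so each group was read early in differentiation and no undifferentiated sample entered. ATAC-seq was used, in which a transposase cuts accessible DNA. The deposited data were 1 list of broad peaks per library on mouse build mm10. Separate cultures behind the 3 libraries of a group are not stated in the labels, so the p-values measure the spread between these libraries, which may be technical.

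G-CSF receptors lack a kinase of their own and signal through JAK kinases, which activate STAT transcription factors. Feedback inhibitors of the SOCS family, among them Cish and Socs3, are STAT targets that dampen the signal. In bone marrow this receptor drives granulocyte production: cells leave the Kit-positive progenitor state, make primary granule proteins such as myeloperoxidase at the promyelocyte stage, and later make secondary granule proteins, S100 proteins and chemokine receptors. ASXL1 is a chromatin protein that works with the BAP1 deubiquitinase, and truncating mutations of it accompany CSF3R mutations in some human leukemias.

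The sgB2/Empty lists held 20293, 25252 and 25891 peaks, and the sgB2/T618I lists held 24995, 32975 and 23695. The mean was 23812 ± 3064 (SD, n = 3) against 27222 ± 5025 peaks (SD, n = 3), and the groups overlapped (exact permutation test, two-sided, p = 0.6). Peaks covered 9.46, 12.2 and 13.2 Mb in sgB2/Empty and 13.4, 17.9 and 12.6 Mb in sgB2/T618I (exact permutation p = 0.2). Median peak width was 395, 405 and 428 bp in sgB2/Empty and 454, 447 and 450 bp in sgB2/T618I. The widths did not overlap between groups, and the exact permutation p of 0.1 is the smallest that 3 against 3 libraries can give. Read depth is unknown from peak lists, so its part in these widths and in the balance of gains and losses was not tested. The shortest list was sgB2/Empty replicate 1 and the longest was sgB2/T618I replicate 2.

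Marker genes were read for regions inside the gene that were found in all 6 libraries. Of 21 myeloid transcription factor genes 18 had such a region, as did 12 of 18 stem and progenitor genes and 10 of 15 primary granule genes. The number was 10 of 25 for mature neutrophil genes and 9 of 20 for the secondary and tertiary granule list, which also holds S100 genes. It was 10 of 20 for monocyte, macrophage and dendritic genes. These counts do not separate the granulocyte from the monocyte lineage. For lymphoid genes the number was 4 of 20, with 12 having no region inside in any of the 6 libraries, for erythroid and megakaryocyte genes 5 of 16, with 9 having none, and for non-blood genes 4 of 15, with 10 having none. Of 14 mast cell, basophil and eosinophil genes 4 had such a region. In bulk libraries, fewer cells with an open site and less opening per cell cannot be told apart.

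Peak strength was compared first at 13356 shared regions, those with a peak in all 12 libraries. Each region was given its percentile rank by −log10 p within its own library, from 0 for the weakest to 100 for the strongest, so that list length and depth do not set the scale. Ranks rose at 638 regions, 4.78% of those tested, and fell at 525, or 3.93%, in sgB2/T618I against sgB2/Empty (limma, Benjamini-Hochberg adjusted p under 0.05). The largest rises lay near Zeb2, Cdk6 and Cnih3, followed by Cish, and the largest falls near Kit, Dhrs7c and Adamts2. The median difference over all shared regions was -0.19 percentile points. Regions are named by the nearest protein-coding gene, which need not be the gene they act on. Without sgB2/Empty replicate 1 or 2 the 1163 calls fell to 745 and 666, and without sgB2/T618I replicate 1 or 2 to 739 and 652. Ranking by fold over background instead of −log10 p left 252 calls. Where the call of a named region was lost in at least 6 of 12 alternative settings, that number is given beside it.

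**Figure D1:**
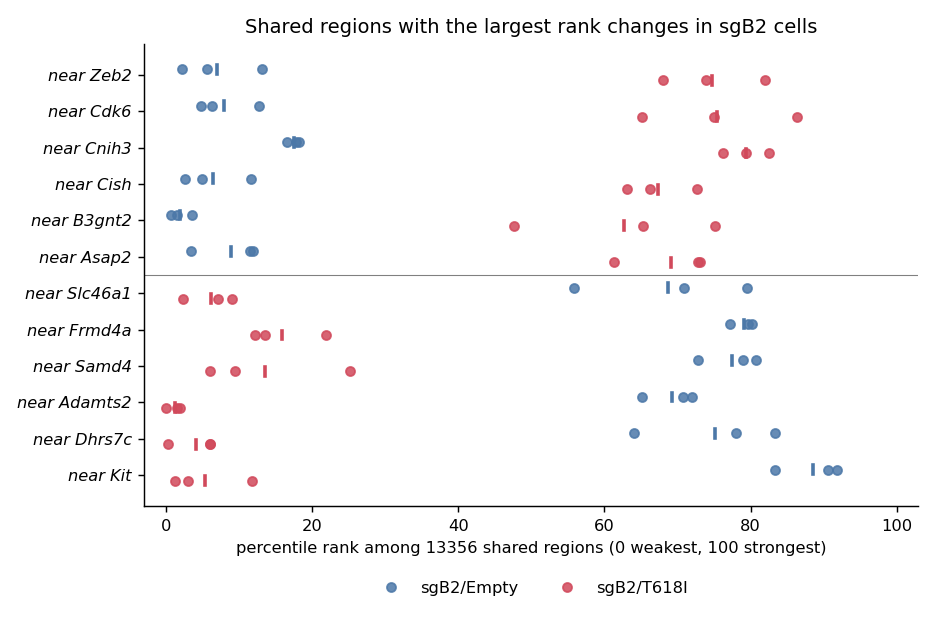
Percentile rank (x axis, 0 to 100) of the 6 shared regions with the largest rise and the 6 with the largest fall, 1 per nearest gene (y axis), with 1 point per library and a bar at the mean of 3. The sgB2/T618I points lie to the right of every sgB2/Empty point in the upper 6 regions and to the left in the lower 6. The regions were chosen by their difference between these libraries, which makes such separation likely.

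The region near Cish (chr9:107312472-107313430) lay 9.69 kb from the gene, which encodes a STAT5-induced inhibitor of cytokine receptors. Its rank was 2.60, 4.88 and 11.6 in sgB2/Empty and 72.7, 63.1 and 66.2 in sgB2/T618I. The groups were far apart, with a difference of 61.0 ± 7.9 points (SE, limma adjusted p = 0.00041). Another shared region, 309 bp from Cish, moved from 4.51, 8.26 and 11.1 to 46.2, 30.8 and 32.7 (limma adjusted p = 0.0059). At Socs1, which encodes an inhibitor of JAK kinases, a region 14.7 kb from the gene went from 15.4, 19.4 and 16.9 to 73.5, 72.6 and 67.3, a difference of 53.9 ± 7.0 (SE, limma adjusted p = 0.00041). All 3 sgB2/T618I libraries stood above all 3 sgB2/Empty libraries in each of these regions, as is likely for regions called for a rise.

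Regions near Cdk6 and Zeb2 rose as much. Cdk6 encodes a cell cycle kinase of blood progenitors, and the region 39.5 kb from it ranked 12.6, 6.29 and 4.8 in sgB2/Empty and 65.1, 86.4 and 74.9 in sgB2/T618I. The difference was 67.6 ± 10.3 (SE, limma adjusted p = 0.0011). Zeb2 encodes a transcription factor of myeloid cells, and the region in the gene-poor stretch beside it, 1285 kb away, ranked 13.1, 2.19 and 5.60 against 82.0, 74.0 and 68.0. Regions near B3gnt2, Asap2 and Cnih3 complete the 6 largest rises, at 60.7, 60.1 and 61.9 points. No library of one group reached the other in any of them, as choosing the largest called changes makes likely.

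The largest fall was near Kit, the gene of the stem cell factor receptor. The region at chr5:75730550-75731406, 73.8 kb from the gene, was among the strong peaks of sgB2/Empty, with ranks of 83.3, 90.6 and 91.8, and among the weakest of sgB2/T618I, with ranks of 11.8, 2.93 and 1.18. The difference was -83.3 ± 7.9 (SE, limma adjusted p = 0.00011). The region at the Kit start fell as well, from 43.0, 31.8 and 14.0 to 2.65, 1.04 and 7.68 (limma adjusted p = 0.014). Other large falls were near Adamts2 (-68.2), Dhrs7c (-71.1), Samd4 (-64.0) and Slc46a1 (-62.6), and at a start of Frmd4a (-63.2). At the Adamts2 region the ranks were 65.2, 70.8 and 71.9 in sgB2/Empty and 1.52, 0.0112 and 1.93 in sgB2/T618I, so a strong peak was among the weakest shared peaks with T618I.

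Regions that changed rank lay less often at gene starts. Of regions whose rank rose, 42.9% were within 1 kb of an annotated start, and of those whose rank fell 33.4% were. Among shared regions with no call 57.1% were at a start. Between genes lay 24.8% of rising and 31.2% of falling regions, against 16.3% of those with no call. Shares are over regions on chromosomes with annotated starts, and no test of the difference was made.

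The sgNT libraries shared no sample with the groups compared, though they entered the choice of shared regions and the estimate of spread. Of the 638 regions that rose in sgB2 cells, 585 had a higher mean rank in sgNT/T618I than in sgNT/Empty, which is 91.7%, and 135 passed the test there. Of the 525 that fell, 476 fell in mean there, which is 90.7%, and 131 passed. The median difference was 28.1 points in sgB2 and 13.0 in sgNT for the rising regions, and -28.5 and -14.5 for the falling ones. The regions were chosen on their sgB2 values, so the sizes of the medians are not comparable between guides. Among regions with no call in sgB2 cells the sign was shared by 67.3%.

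Presence and absence of peaks gave the second view. Peaks of all 12 lists were merged where they overlapped by at least 1 bp, which gave 56682 regions, of which 45653 had a peak in any of the 6 libraries compared. A region was gained where all 3 sgB2/T618I libraries and no sgB2/Empty library had a peak, and lost in the opposite case. There were 1202 gained regions (2.63%) and 338 lost ones (0.740%), beside 14886 regions found in all 6. The excess of gains depended on list length: with every list shortened to the same number of its strongest peaks there were 722 gained and 630 lost regions. Without both the shortest and the longest of the 6 lists, a setting chosen after the values were seen, losses outnumbered gains, at 1773 against 1474. Without sgB2/T618I replicate 1 or 3, or sgB2/Empty replicate 3, the gained count was 2086, 2292 and 1860. Without sgB2/T618I replicate 2, or sgB2/Empty replicate 1 or 2, the lost count was 779, 869 and 567.

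Gained regions lay mostly away from gene starts: 8.25% were within 1 kb of a start, 46.7% inside a gene and 45.0% between genes. Lost regions were placed alike, at 8.56%, 48.9% and 42.5%. Over all 45653 regions 21.7% were at a start. The median width was 542.5 bp for gained and 446.5 bp for lost regions.

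The sgNT libraries, whose peaks entered the merging but not the calls, were read at the same regions. Gained regions had a peak in 71.4, 66.1 and 75.2% of cases in the 3 sgNT/T618I libraries and in 7.40, 29.0 and 38.4% in the 3 sgNT/Empty libraries. Over all 45653 regions the shares were 56.3, 52.6 and 56.8% against 37.9, 52.2 and 56.0%. Lost regions had a peak in 43.2, 32.2 and 39.1% in sgNT/T618I and 44.1, 70.4 and 79.0% in sgNT/Empty. For both sets the sgNT groups did not overlap (exact permutation p = 0.1, the smallest possible, over 3 tests of this kind, unadjusted). The replicate 1 list of sgNT/Empty was the shortest of the series, at 18484 peaks, and had the lowest share for all and for gained regions, though not for lost ones. By the same rule of all against none, 254 of the 1202 gained regions were also gained in sgNT cells and 32 of the 338 lost ones were also lost there. Over all 45653 regions, 1039 were gained and 160 were lost in sgNT cells. No sgNT library had a peak at 146 of the 1202 gained and 44 of the 338 lost regions, against 13352 of all 45653 regions.

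**Figure D2:**
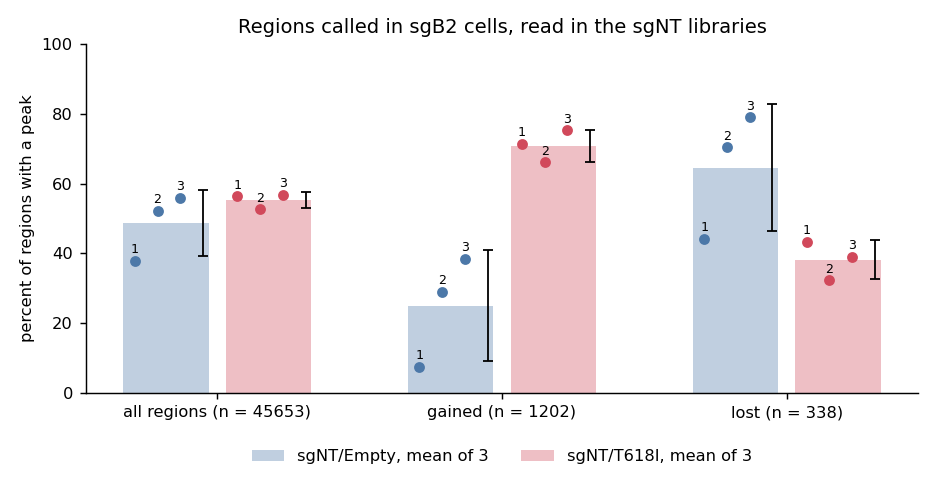
Percent of regions with a peak (y axis, 0 to 100) in each sgNT library, for all regions, gained regions and lost regions of the sgB2 comparison (x axis). Bars are means of 3, error bars are SD and numbered points are replicates. Gained regions were found in 70.9% on average in sgNT/T618I and 24.9% in sgNT/Empty, and lost regions in 38.2% and 64.5%.

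The strongest gained regions, by mean percentile within the full lists of sgB2/T618I, lay in or nearest to Hcfc2, Ifitm1, Specc1l, Ankrd33, Havcr2, N4bp1, Iqsec1, Cdc73, Ostf1 and Syt3. The region named by Cdc73 was 709 kb from that gene. Percentile here counts from 0 for the weakest to 100 for the strongest peak of a library. The Ifitm1 region (chr7:140967779-140968504) covered the start of the gene, which encodes an interferon-inducible membrane protein, with percentiles of 69.8, 83.5 and 84.2. The region in Havcr2, the gene of the immune receptor TIM-3, stood at 73.2, 76.7 and 78.6. The region inside Hcfc2 had 84.1, 86.0 and 71.0. These regions were chosen for high percentiles, so their place in the upper part of the lists is not a result. Over all 1202 gained regions the median of the mean percentile in sgB2/T618I was 32.7. Over the 338 lost regions it was 32.9 in sgB2/Empty. All 10 had a peak in all 3 sgNT/T618I libraries, and 4 of them, at Hcfc2, Specc1l, Cdc73 and Ostf1, had none in sgNT/Empty.

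The strongest lost regions lay in or nearest to Rasgrp3, Sall3, Adcy2, Susd1, Tcerg1l, Atp8b4, Inpp5d and Slc8a1. Those named by Sall3 and Slc8a1 were 585 and 278 kb from the gene. Rasgrp3 encodes an activator of Ras proteins, and the lost region 3.4 kb from its start (chr17:75461765-75462135) stood at 86.0, 78 and 90.2 in sgB2/Empty. Of these 8 regions, all had a peak in all 3 sgNT/Empty libraries, but 3, at Rasgrp3, Susd1 and Tcerg1l, had one in all 3 sgNT/T618I libraries too, and 2, at Inpp5d and Adcy2, had none there. Inpp5d encodes the phosphatase SHIP1, an inhibitor of cytokine signals, and a region inside it stood at 53.8, 73.1 and 78.6 in sgB2/Empty and was missing from all sgB2/T618I libraries. Its start region went the other way in rank, from 0.730, 6.68 and 16.1 to 42.6, 25.8 and 20.3 (limma adjusted p = 0.039), and that call was lost in 9 of 12 alternative settings.

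Promoter sequences were read for the regions that covered a gene start. The RefSeq table on GRCm38.p6, which has the coordinates of mm10, gave 32619 starts, and the 250 bases before each were searched on both strands. The motifs were AP-1 (TGANTCA), PU.1 (GAGGAAGT), STAT (TTCNNNGAA), C/EBP (TTNCNNAA), RUNX (TGTGGT) and CRE (TGACGTCA), which factors of these families are known to bind. None of these patterns contains another, though matches may overlap by chance. Gained regions touched 83 of these promoters, from 77 genes, and lost regions touched 27.

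AP-1 letters were in 15 of the 83 promoters with a gained region, or 18.1%. They were in 6.78% of all promoters, in 4.0% of the 11585 promoters with a peak in any of the 6 libraries, and in 6.93% of the 722 touched by a region found in only 1 or 2 of the 6. Promoters touched by a shared region that rose in rank, as at Prdm1 below, had them in 3.95% of 354, near the 4.0%. The 15 genes of the gained set were Ankrd22, Atp13a4, C3ar1, Ecm1, F2rl2, Fblim1, Gm31650, Gm34947, Gm35218, Gm39082, Hfe, Il6, Smim14, Snx10 and Tbxas1, all named because of the match. The PU.1 letters were in 8 of the 83, or 9.64%, against 2.46% of all promoters and 3.03% of those with a peak. The STAT letters were in 4.82%, against 7.05% of all and 5.65% of those with a peak. C/EBP letters were in 34.9%, below the 36.9% of all promoters and above the 26.8% of those with a peak. RUNX letters were in 14.5%, against 13.9% and 10.9%. CRE letters were in none of the 83, against 1.56% and 2.93%. In the 722 promoters with a region found in only 1 or 2 libraries, PU.1 letters were in 4.16% and STAT letters in 5.54%. C/EBP letters were in 35.7% of these 722 and RUNX letters in 17.6%, both above the gained set, and CRE letters in 1.66%. The promoters with a gained region held a median of 4 CG pairs, against 6 in all promoters and 17 in those with a peak. The sets differ in base composition, a match is no proof of a bound site, and no test was made.

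**Figure D3:**
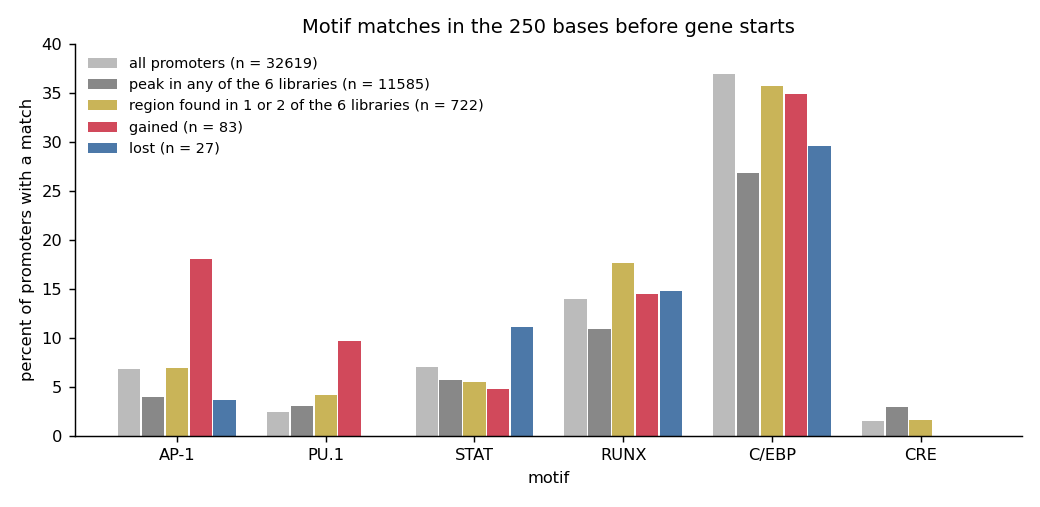
Percent of promoters (y axis, from 0) with at least 1 match to each motif (x axis) in the 250 bases before the start, for all promoters, those with a peak, those with a region found in 1 or 2 of the 6 libraries, and those with a gained or lost region. AP-1 stands at 18.1% and PU.1 at 9.64% in the gained set, above the other 4 sets, and the lost set holds 27 promoters only.

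Shown first are the promoters with AP-1 letters at starts whose region was gained (F2rl2, Il6) or rose in rank (Prdm1), printed 5′ to 3′ with motif matches in capitals.
F2rl2 (chr13:95696670-95696919, plus strand): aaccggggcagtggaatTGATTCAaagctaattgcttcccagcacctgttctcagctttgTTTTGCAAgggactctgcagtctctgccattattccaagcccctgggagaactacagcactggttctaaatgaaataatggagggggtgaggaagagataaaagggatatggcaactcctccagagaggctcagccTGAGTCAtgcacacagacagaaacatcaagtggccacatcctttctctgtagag
Il6 (chr5:30012864-30013113, plus strand): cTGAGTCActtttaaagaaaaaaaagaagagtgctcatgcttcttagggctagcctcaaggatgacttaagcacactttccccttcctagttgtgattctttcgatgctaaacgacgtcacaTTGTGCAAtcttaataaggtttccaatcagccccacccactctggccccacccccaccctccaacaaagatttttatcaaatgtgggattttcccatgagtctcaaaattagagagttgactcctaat
Prdm1 (chr10:44458749-44458998, minus strand): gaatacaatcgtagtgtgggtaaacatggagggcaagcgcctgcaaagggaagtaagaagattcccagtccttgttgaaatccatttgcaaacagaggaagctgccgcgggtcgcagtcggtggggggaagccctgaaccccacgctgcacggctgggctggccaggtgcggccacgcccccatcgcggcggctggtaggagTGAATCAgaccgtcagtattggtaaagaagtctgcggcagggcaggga
In F2rl2, which encodes the thrombin receptor PAR3, the gained region covered the last 113 of the 250 bases, and of 3 matches only the AP-1 match at bases 197 to 203 lay in it. In Il6, the gene of interleukin-6, the gained region covered all 250 bases, with an AP-1 match at bases 2 to 8 and a C/EBP match at 123 to 130. Its percentiles were 16.3, 23.6 and 20.5 in sgB2/T618I, with no peak in sgB2/Empty. The Prdm1 start, of the gene for the repressor BLIMP1, was found in all libraries, and its rank rose from 7.36, 17.2 and 7.0 to 60.4, 64.6 and 57.9 (difference 50.4 ± 7.1 SE, limma adjusted p = 0.00062).

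Next come starts of neutrophil genes: Il1r2, the decoy receptor for interleukin-1, with a STAT match; Mmp8, neutrophil collagenase, with PU.1 and C/EBP matches; the stefin genes Stfa2 and Stfa2l1, which encode inhibitors of cathepsins; and Mpo, myeloperoxidase, with a PU.1 match.
Il1r2 (chr1:40085843-40086092, plus strand): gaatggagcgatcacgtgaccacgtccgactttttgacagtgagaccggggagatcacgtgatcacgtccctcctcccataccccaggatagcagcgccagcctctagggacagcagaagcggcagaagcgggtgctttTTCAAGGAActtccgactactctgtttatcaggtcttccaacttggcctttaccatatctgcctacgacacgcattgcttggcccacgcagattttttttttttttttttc
Mmp8 (chr9:7558179-7558428, plus strand): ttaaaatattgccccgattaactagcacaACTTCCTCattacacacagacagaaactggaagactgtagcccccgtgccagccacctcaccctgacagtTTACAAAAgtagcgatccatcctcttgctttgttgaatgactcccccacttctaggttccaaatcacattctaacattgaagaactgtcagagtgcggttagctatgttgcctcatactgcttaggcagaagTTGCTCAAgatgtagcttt
Stfa2 (chr16:36408364-36408613, minus strand): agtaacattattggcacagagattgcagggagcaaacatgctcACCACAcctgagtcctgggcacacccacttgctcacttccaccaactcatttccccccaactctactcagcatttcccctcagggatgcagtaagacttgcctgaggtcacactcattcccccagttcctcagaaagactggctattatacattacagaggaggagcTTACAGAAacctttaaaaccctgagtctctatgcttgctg
Stfa2l1 (chr16:36156561-36156810, plus strand): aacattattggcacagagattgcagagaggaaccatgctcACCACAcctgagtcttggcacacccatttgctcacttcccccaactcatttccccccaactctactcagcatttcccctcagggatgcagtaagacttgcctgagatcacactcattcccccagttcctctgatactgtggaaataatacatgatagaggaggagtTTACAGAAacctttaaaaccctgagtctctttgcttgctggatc
Mpo (chr11:87793534-87793783, plus strand): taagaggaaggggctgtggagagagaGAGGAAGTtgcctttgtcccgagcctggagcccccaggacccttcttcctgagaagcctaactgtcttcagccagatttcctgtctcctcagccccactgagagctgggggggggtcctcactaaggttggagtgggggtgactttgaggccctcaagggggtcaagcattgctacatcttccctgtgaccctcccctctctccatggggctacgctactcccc
The regions covered all 250 bases of each of these 5 promoters. The Il1r2 start rose in rank from 5.72, 5.91 and 2.09 to 36.0, 72.0 and 46.2 (limma adjusted p = 0.0063). The Mmp8 start was gained, at percentiles of 35.9, 40.7 and 35.6. The Stfa2 start was gained at 74.9, 75.9 and 70.7 and the Stfa2l1 start at 70.1, 82.0 and 68.3. The Stfa2l1 region also had a peak in all 3 sgNT/Empty libraries, at 22.4, 48.4 and 43.7, and the Stfa2 region in none. The Stfa2 and Stfa2l1 promoters were identical at 227 of 254 aligned positions, or 89.4%, so the submitters' alignment could have split reads between them, and their values are uncertain one by one. The Mpo start went the other way, from ranks of 48.2, 62.1 and 54.1 to 4.16, 5.36 and 0.955 (difference -51.3 ± 6.9 SE, limma adjusted p = 0.00049). PU.1 letters stood both in a gained start (Mmp8) and in a start that fell (Mpo).

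Peak coverage was then summed per gene, over the gene and 50 kb on each side, and scaled so that all libraries had the same total covered length. Of 15286 genes tested, 185 rose (1.21%), in 113 separate loci, and 60 fell (0.393%), in 40 loci, by limma at an adjusted p under 0.05. The median log2 difference over all genes was -0.06. Without scaling the median moved to 0.21 and 35 genes rose and 1 fell, so the split between rising and falling genes rests on the scaling. With lists of equal length 198 rose and 157 fell, a nearly even split, and 106 of these 355 calls were among the 245. Without sgB2/Empty replicate 1 or 2 the 245 calls became 89 and 163, and without sgB2/T618I replicate 1, 2 or 3 they became 132, 104 and 114. Log2 differences are of scaled length plus 500 bp, which understates the change of windows with little coverage.

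**Figure D4:**
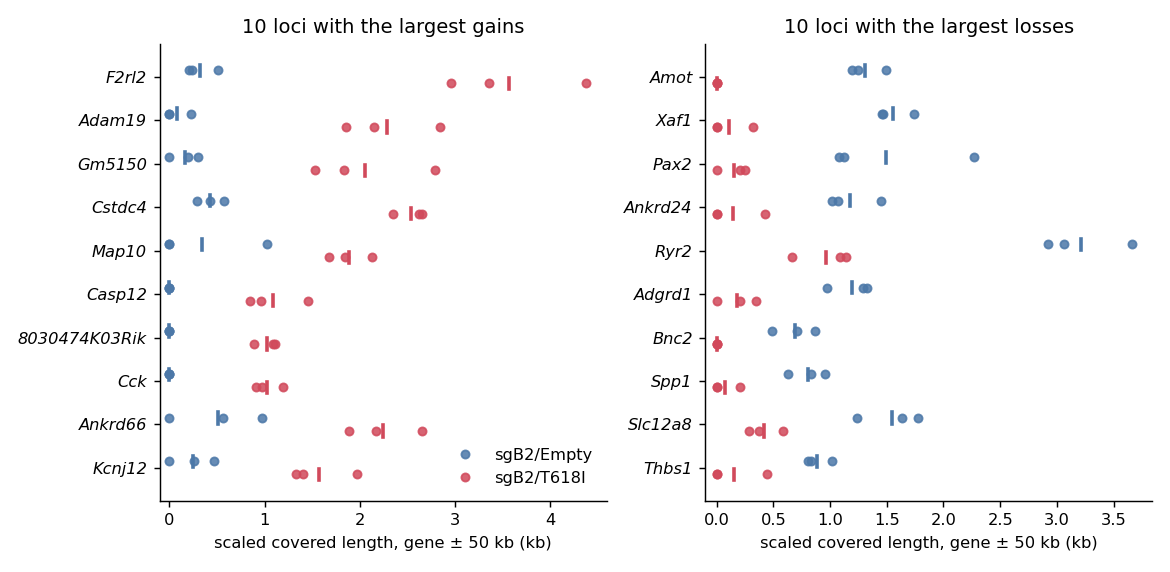
Scaled covered length in kb (x axes) within 50 kb of the 10 loci with the largest gains and the 10 with the largest losses (y axes), with 1 point per library and a bar at the mean of 3. F2rl2 had at most 0.509 kb in sgB2/Empty and at least 2.96 kb in sgB2/T618I. In all 20 loci the groups do not overlap, as choosing the largest called changes makes likely.

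F2rl2 had the largest gain. Its window held 0.509, 0.243 and 0.206 kb in sgB2/Empty and 2.96, 3.35 and 4.37 kb in sgB2/T618I, a log2 difference of 2.31 ± 0.24 (SE, limma adjusted p = 0.00014). At Adam19, which encodes a metalloprotease, coverage was 0, 0.229 and 0 kb against 2.15, 2.84 and 1.85 kb (log2 difference 2.28 ± 0.41, limma adjusted p = 0.01), a call lost in 5 of 17 alternative settings. Casp12, in a locus with the inflammatory caspase genes Casp1 and Casp4, had no peak in any sgB2/Empty library and 0.966, 1.45 and 0.853 kb in sgB2/T618I. Its log2 difference was 1.65 ± 0.23 (SE, limma adjusted p = 0.0014). The remaining 7 loci were named by Gm5150, Cstdc4, Map10, 8030474K03Rik, Cck, Ankrd66 and Kcnj12, with log2 differences between 1.51 and 1.94. The Ankrd66 and Kcnj12 calls were lost in 8 of 18 and 8 of 17 settings. The 8030474K03Rik locus holds the chemokine receptor gene Cxcr3, and the Ankrd66 locus holds Pla2g7, a phospholipase gene. In all 10 loci each sgB2/T618I library was above each sgB2/Empty library, as choosing the largest called changes makes likely.

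Amot had the largest loss. It encodes angiomotin, an adaptor of the Hippo pathway, and its window held 1.5, 1.19 and 1.25 kb in sgB2/Empty and no peak in any sgB2/T618I library (log2 difference -1.85 ± 0.17, limma adjusted p = 7.04e-05). Xaf1, an interferon-inducible gene of cell death, had 1.74, 1.46 and 1.46 kb against 0, 0.323 and 0 kb (log2 difference -1.80 ± 0.27, limma adjusted p = 0.0031). Ryr2, a calcium channel gene that spans many regions, had 2.92, 3.06 and 3.66 kb against 1.14, 0.667 and 1.09 kb. The other 7 loci were named by Pax2, Ankrd24, Adgrd1, Bnc2, Spp1, Slc12a8 and Thbs1, with log2 differences from -1.58 to -1.16. The Pax2 call was lost in 8 of 16 settings. Spp1 and Thbs1 encode the secreted proteins osteopontin and thrombospondin 1. In these 10 loci each sgB2/T618I library was below each sgB2/Empty library, which the same way of choosing makes likely.

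The engineered genes were read where peaks could show them. The vector's CSF3R and the Hoxb8 transgene are not in the mouse reference, and a peak list cannot show small edits at Asxl1, so these windows check no label. Asxl1 coverage was 2.23, 4.98 and 3.66 kb in sgB2/Empty and 3.33, 4.90 and 4.23 kb in sgB2/T618I, which overlapped (log2 difference 0.22 ± 0.22, limma adjusted p = 0.66). A region inside Asxl1, 47.0 kb from its start, was gained at percentiles of 30.1, 20.3 and 21.3, and it also had a peak in 2 sgNT/T618I libraries and 1 sgNT/Empty library. Hoxb8 had 0.910, 1.01 and 1.07 kb against 0.672, 1.02 and 0.461 kb, which also overlapped (limma adjusted p = 0.54). Mouse Csf3r had 3.39, 2.89 and 2.51 kb against 4.23, 4.38 and 4.39 kb, with no overlap (log2 difference 0.50 ± 0.12, limma adjusted p = 0.04). The Csf3r call was lost in 10 of 18 alternative settings and its sign turned in 2 more.

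Of 37 genes of CSF3R signalling, 2 rose in coverage and none fell, against 1.21% and 0.393% of all genes. The median log2 difference was 0.01, against -0.06 over all genes. Csf3r, the receptor, was 1 of them, and 2 regions 18.3 and 32.3 kb from it were gained while another, 5.06 kb away, rose in rank from 33.7, 27.9 and 36.9 to 83.0, 60.1 and 63.4 (limma adjusted p = 0.029, a call lost in 6 of 12 settings). Il4ra, the interleukin-4 receptor and a STAT target, was the other, with 1.38, 2.12 and 2.82 kb against 6.67, 4.66 and 5.90 kb (log2 difference 1.29 ± 0.24, limma adjusted p = 0.013), a call lost in 6 of 18 settings. The region at the Il4ra start went the other way, from ranks of 60.7, 40.7 and 29.8 to 9.67, 9.95 and 24.0 (limma adjusted p = 0.02), and that call was lost in 6 of 12. Coverage at the ligand gene Csf3 was 2.99, 3.17 and 3.24 kb against 1.76, 2.34 and 2.43 kb and did not pass (limma adjusted p = 0.14). Among the kinases, a region 12 kb from Jak2 was gained at percentiles of 70.6, 82.0 and 51.6, and a region 1.36 kb from Syk at 28.4, 60.5 and 67.1. A region inside Lyn fell in rank from 72.4, 68.6 and 68.9 to 29.5, 34.6 and 40.1 (limma adjusted p = 0.0082).

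Around these genes 79 shared regions were tested, of which 9 rose and 8 fell, against 4.78% and 3.93% of all shared regions, so the calls went both ways. Of the 9, 3 were lost in at least 6 of 12 settings (near Csf3r, Inpp5d and Ptpn6), and of the 8, 3 were (near Il4ra, Myc and Tyk2). Of the inhibitors, Cish and Socs1 had rising regions, given above, and gained regions lay 5.73 kb from Socs3, at percentiles of 13.2, 63.8 and 44.1, and 25.1 kb from Socs2. Ptpn6, the gene of the phosphatase SHP-1, had a start region that fell from ranks of 51.7, 55.8 and 43.6 to 0.0262, 15.9 and 16.7 (limma adjusted p = 0.0047). Another region inside Ptpn6 rose, from 29.0, 24.0 and 30.3 to 56.8, 45.2 and 61.6 (limma adjusted p = 0.036), a call lost in 10 of 12 settings. Among targets, a region 3.75 kb from Osm, the gene of oncostatin M, rose from 41.1, 52.5 and 32.0 to 64.1, 80.2 and 79.9, and a region in the cyclin gene Ccnd3 rose from 54.6, 40.1 and 61.2 to 88.1, 73.4 and 90.1. Regions inside Bcl2l1, a survival gene, and at the start of Bcl3 fell, by 29.0 and by 26.1 points. Of 219 regions nearest to these genes, 10 were gained and 4 lost, against 2.63% and 0.740% of all regions.

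Mature neutrophil genes had several rises. Of 24 tested, 3 rose in coverage and none fell, against 1.21% and 0.393% of all genes, with a median log2 difference of 0.31. Il1r2 had 2.03, 2.05 and 2.12 kb in sgB2/Empty and 5.64, 4.01 and 5.18 kb in sgB2/T618I (log2 difference 1.07 ± 0.20, limma adjusted p = 0.013). Ccl6 and Wfdc17, which lie in 1 chemokine locus with Ccl4, were the other 2, and this locus counts once as a position. The calls were lost in 6 of 18 settings for Il1r2, 6 of 18 for Ccl6 and 7 of 17 for Wfdc17. Of 22 shared regions 4 rose in rank and none fell, against 4.78% and 3.93% of all. Of 85 regions 6 were gained and none lost, against 2.63% and 0.740% of all. At those shares a list of this size is likely to hold few falls or losses or none. Near Cxcr2, the chemokine receptor that draws neutrophils into blood, a shared region 5.51 kb from the gene rose from 8.50, 24.3 and 16.3 to 66.8, 74.2 and 68.7, a difference of 53.6 ± 7.5 (SE, limma adjusted p = 0.00062). A region inside Cxcr2 was gained at percentiles of 69.2, 64.9 and 61.8, and the start of the chemokine gene Cxcl2 rose from 8.27, 5.57 and 1.52 to 48.3, 52.8 and 28.0.

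Coverage calls were falls in the primary granule list. In the secondary and tertiary granule list they were rises, at S100a8 and S100a9 only. Of 15 primary granule genes 2 fell and none rose, against 0.393% and 1.21% of all genes, with a median log2 difference of -0.15. Mpo had 8.09, 7.22 and 8.38 kb in sgB2/Empty and 5.23, 5.02 and 5.55 kb in sgB2/T618I (log2 difference -0.54 ± 0.13, limma adjusted p = 0.041), a call lost in 13 of 18 alternative settings. Prtn3, the gene of proteinase 3, had 10.2, 9.03 and 9.07 kb against 6.25, 5.83 and 6.35 kb (limma adjusted p = 0.02), and its call was lost in 8 of 18. A region 2.55 kb from Ctsg, the cathepsin G gene, fell in rank from 42.6, 49.1 and 60.1 to 4.56, 1.15 and 5.65 (limma adjusted p = 0.0082). Of 50 regions nearest to primary granule genes 1 was gained, against 2.63% of all, and none lost. It lay 33.2 kb from Ctsc, at percentiles of 53.8, 64.5 and 45.6 in sgB2/T618I. Of 19 genes tested in the secondary and tertiary granule list, which also holds S100 genes, 2 rose, against 1.21% of all genes. None fell, against 0.393% of all genes, and the median was 0.10. The 2 were the neighbours S100a8 and S100a9, subunits of calprotectin, and no other gene of the list passed. S100a8 had 2.66, 2.38 and 2.31 kb against 5.46, 5.40 and 4.86 kb (log2 difference 0.96 ± 0.12, limma adjusted p = 0.00071). Of 21 shared regions near genes of the list 1 rose in rank, in Itgb2, against 4.78% of all, and none fell. That call was lost in 7 of 12 settings, and the median rank difference of the 21 was -0.29. Near this gene list 6 of 67 regions were gained, against 2.63% of all, and none lost. Of the 6, 3 lay beside S100a8 and S100a9. The others lay beside Mmp8, Ltf and Ngp, which encode collagenase, lactoferrin and neutrophilic granule protein. The Ngp region also had a peak in all 3 sgNT/Empty libraries, at percentiles of 42.6, 73.0 and 64.2. The Ltf region had one in 1 of them, and the Mmp8, S100a8 and S100a9 regions had none.

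The list of stefins and protease inhibitors had the highest share of coverage calls among the lists, 6 of 12 tested against 1.21% of all genes. The median log2 difference of the 12 was 0.94. All 6 rose and all lie in 1 cluster on chromosome 16, where windows overlap, so they are not independent. The Cstdc4 window, which holds the same regions as that of Stfa2l1, had 0.293, 0.574 and 0.426 kb in sgB2/Empty and 2.65, 2.62 and 2.35 kb in sgB2/T618I (log2 difference 1.72 ± 0.18, limma adjusted p = 0.00014). Stfa1 had 1.37, 1.02 and 1.09 kb against 3.12, 3.37 and 3.05 kb (limma adjusted p = 0.0011). The phagocyte oxidase genes had no coverage call among 6 tested, but 2 of 12 shared regions rose, against 4.78% of all, both in Ncf4, which encodes the p40-phox subunit. The second of them went from 54.0, 51.7 and 50.4 to 86.8, 88.6 and 85.7.

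Among 17 stem and progenitor genes 1 fell in coverage and none rose, against 0.393% and 1.21% of all genes. It was Kit, which fell in coverage, from 1.84, 1.74 and 1.29 kb to 0.595, 1.05 and 0.777 kb (log2 difference -0.71 ± 0.17, limma adjusted p = 0.048), and that call was lost in 9 of 18 alternative settings. The median of the 17 was 0.10. Of 27 shared regions 6 fell and 2 rose, against 3.93% and 4.78% of all. The falling ones lay near Kit (2 regions), Etv6 (2), Cd34 and Lmo2, and the 2 rising ones lay near Cd34, the gene of a progenitor surface protein. Of the 6 falls, 3 were lost in at least 6 of 12 settings, the Lmo2 region in 10, an Etv6 region in 8 and the Cd34 region in 8. Of the 2 rises, 1 was lost in 7. The region 58.7 kb from Cd34 rose from 51.9, 34.0 and 35.0 to 88.4, 76.9 and 81.4 (limma adjusted p = 0.0063). Of 112 regions nearest to these genes 4 were gained and 1 was lost, against 2.63% and 0.740% of all. The gained ones lay near Slamf1, Cd48 and Mycn and in Etv6, and the lost one in Erg.

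None of 20 myeloid transcription factor genes passed in coverage, with a median of 0.09, while 7 of their 55 shared regions rose in rank and 7 fell, against 4.78% and 3.93% of all. The rising regions lay nearest to Cebpb (3), Zeb2 (3) and Bcl6 (1). Of the 3 named by Zeb2, 1 lay inside the gene and the others 1253 and 1285 kb from it. A region 84.5 kb from Cebpb, the gene of C/EBPβ, went from 39.2, 43.9 and 31.8 to 78.3, 76.6 and 78 (difference 39.3 ± 6.2 SE, limma adjusted p = 0.0015). Falling regions lay in Myb, a progenitor factor, at its start and 13.8 kb from it, and near Runx1, Klf4, Cebpg, Id2 and Zeb2. Of 12 settings, the call was lost in 10 at Id2, 9 at Klf4, 8 at Cebpg, 9 at 1 Cebpb region and 6 at 1 Zeb2 region. The Myb start fell from 35.6, 44.2 and 38.2 to 8.88, 3.9 and 15.4 (limma adjusted p = 0.014). The groups did not overlap in either of these regions, as is likely for called regions.

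Inflammatory genes had 2 rising members of 29 and no falling ones, against 1.21% and 0.393% of all genes, with a median log2 difference of 0.05. Il6 had 0.261, 0.247 and 0.220 kb in sgB2/Empty and 1.22, 1.42 and 1.49 kb in sgB2/T618I (log2 difference 1.33 ± 0.20, limma adjusted p = 0.0025). Beside the Il6 start, 2 more gained regions lay 47.1 and 110.8 kb from the gene. Ccl4, a macrophage chemokine gene, had 2.04, 3.02 and 2.77 kb against 4.12, 5.24 and 5.65 kb, in the same locus as Ccl6 above, and its call was lost in 8 of 18 settings. Of 44 shared regions 3 rose and 1 fell, against 4.78% and 3.93% of all, the fall being at a region 162.9 kb from Jun, the gene of an AP-1 subunit. The rises at Batf and Nfkbiz were lost in 7 and 8 of 12 settings. Of 132 regions nearest to inflammatory genes 6 were gained and 2 lost, against 2.63% and 0.740% of all. The lost ones lay 21.7 kb from Il12b, near which another was gained, and 42.6 kb from Jun. Of 14 interferon response genes 1 fell, Xaf1, and none rose, against 0.393% and 1.21% of all genes. Of their 9 shared regions 3 rose, against 4.78% of all, 2 of them near Irf1 and 1 in Oas3.

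Coverage calls in the lists for other cells are set against 1.21% rising and 0.393% falling among all genes. At those shares, a list of 8 to 16 genes is likely to hold no call. Among 16 lymphoid genes 1 fell, Ebf1, a B cell factor, from 2.24, 1.85 and 1.67 kb to 0.383, 0.983 and 0.459 kb (log2 difference -1.16 ± 0.18, limma adjusted p = 0.0043). The lymphoid median was -0.17, and the summed coverage of the 20 lymphoid genes was 33.7 to 35.4 kb in sgB2/Empty and 28.2 to 30.5 kb in sgB2/T618I. No gene passed among 15 monocyte, macrophage and dendritic, 13 erythroid and megakaryocyte, 12 mast cell, basophil and eosinophil, and 8 non-blood genes. Of 41 regions nearest to mast cell, basophil and eosinophil genes 3 were gained, in Hdc and near Ccr3 and Prss34, against 2.63% of all. Of 33 nearest to lymphoid genes 2 were gained, near Ncr1 and Tcf7, and 1 was lost. For monocyte, macrophage and dendritic genes 1 of 50 was gained. Of 16 erythroid and megakaryocyte and 39 non-blood regions none was gained. Summed coverage of the 20 monocyte, macrophage and dendritic genes was 36.1 to 40.2 kb in sgB2/Empty and 38.1 to 40.1 kb in sgB2/T618I. For the 25 mature neutrophil genes it was 60.6 to 66.9 kb against 81.0 to 85.6 kb. Of 22 genes of the ASXL, BAP1 and Polycomb list none passed, with a median of -0.03, and of their 33 shared regions 1 rose, at the Eed start, and 1 fell, in Cbx7, against 4.78% and 3.93% of all. The Eed call was lost in all 12 settings and the Cbx7 call in 7 of 12.

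**Figure D5:**
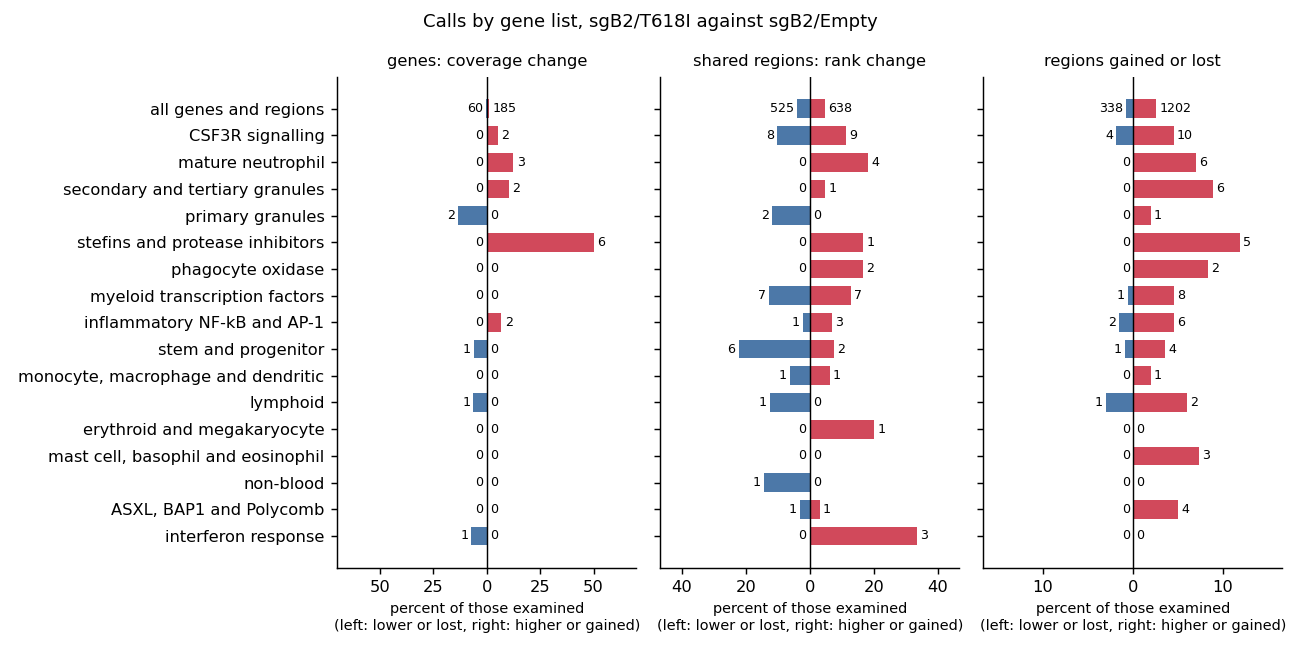
Percent of genes with a coverage call (left), of shared regions with a rank call (middle) and of regions gained or lost (right), by gene list (y axis), with the number of calls at each bar. Bars to the right are rises or gains and bars to the left are falls or losses. The top row gives all genes and regions. The bar of stefins and protease inhibitors in the left panel is 6 of 12 genes tested, and these 6 lie in 1 cluster.

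Whether the change differed between guides was tested by the interaction of guide and vector. Of 15286 genes 1 passed (0.00654%), Amot, by limma at an adjusted p under 0.05, and 751 had an unadjusted p under 0.05. Its log2 change was -1.85 in sgB2 cells and -0.11 in sgNT cells. Of 13356 shared regions 6 passed (0.0449%), near Acadl, Sorcs2, Pex26, Eml6, Tiam1 and Pura. All 6 rose in rank in sgB2 cells, though the sgB2 call at Eml6 was lost in 6 of 12 settings. Those settings were run for the sgB2 change only, and the rank difference between guides was tested in the main setting alone. The region inside Tiam1, the gene of a Rac activator, ranked 5.33, 4.70 and 3.81 in sgB2/Empty and 44.1, 42.6 and 53.5 in sgB2/T618I, and was at most 9.77 in every sgNT library. In sgNT cells the mean rank at the Sorcs2, Pex26, Eml6 and Pura regions was lower with T618I, by 24.8, 20.7, 36.8 and 45.6 points, while it was higher by 39.7, 42.0, 30.5 and 37.7 points in sgB2 cells. A difference that did not pass is not shown to be absent with 3 libraries a group.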

How the data were processed

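ATAC-seq peaks were read from 12 deposited broad peak lists, 1 per library. The submitters' processing notes name BWA 0.7.17, SAMtools 1.9, bedtools 2.30, MACS2 2.2.7.1 and deepTools 3.5 with build mm10; the settings are not given in the sources used here. The deposited lists hold a score, a fold ratio over background, and −log10 p and −log10 q values, all as the authors' peak caller wrote them. The score was not used. The −log10 p was used only for ranks within a library, and the fold ratio only as an alternative for them. Peaks outside chromosomes 1 to 19 and X (112 to 187 a list) were left out. No reads or depths were used.

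Peaks were merged at 1 bp overlap with python 3.11.15 (numpy 2.4.6, pandas 2.3.3). Gene spans of 21631 protein-coding genes came from the RefSeq table for GRCm38.p6, whose coordinates are those of mm10, and starts from its promoter table, which held 79.9% of those genes and none on chromosome 18. The covered length of each gene ± 50 kb was scaled by the library's total covered length. Genes averaging 500 bp or more entered the test, on log2 of the length plus 500 bp. Genes, and percentile ranks of shared regions, were fitted with limma 3.58.1 (R 4.3.3) as 4 group means over 12 libraries with 8 residual degrees of freedom, with Benjamini-Hochberg adjustment over all genes or regions. Each fit was tested on simulated data. Library measures were compared by exact permutation.

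Genes named are the 10 largest changes per direction, 1 per locus, up to 4 members per list by p, more members of CSF3R signalling by role, and the engineered genes. Regions named are the 10 strongest gained, the 8 strongest lost, the 6 largest rank changes per direction, and those that differ between guides. Other called regions near list genes, and the promoters printed, were chosen after their values were seen. The 6 libraries, the 16 gene lists and the tests were chosen with earlier results of these data known. Of list members, 4 were not matched in the gene table. Alternatives changed the window, scaling, added length, filter, peak threshold, list length, ranking column, model and libraries.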

Additional observations from a re-analysis of the deposited data

Results flagged for a closer look

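The effect of T618I on Amot coverage differed between guides by the interaction test: the log2 change in sgB2 cells minus that in sgNT cells was -1.74 (limma adjusted p = 0.02). Amot had 1.52, 1.34 and 0.942 kb in sgNT/Empty and 1.19, 1.14 and 1.03 kb in sgNT/T618I, so the sgNT groups overlapped, while no sgB2/T618I library had a peak in its window. The call was lost with peaks of −log10 q of at least 5, with 2000 bp added, with lists of equal length, without the shortest and the longest sgB2 list, and in each of the 6 fits without 1 library.

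Rank changes differed between guides at 6 shared regions, with the sgB2 change minus the sgNT change as follows. It was 83.3 points near Pura (limma adjusted p = 0.0067), 67.2 in Eml6, 65.8 in Acadl, 64.4 in Sorcs2, 62.6 in Pex26 and 37.6 in Tiam1, with limma adjusted p between 0.038 and 0.041 for the last 5. No alternative setting was run for these rank differences between guides, and their cause was not tested.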

How the results depend on the processing

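Counts of calls moved with several settings. For genes, 245 calls became 102 with windows of 10 kb, 36 without scaling, 355 with lists of equal length (198 up and 157 down, with 106 among the 245), 120 with peaks of −log10 q of at least 5, and 89 to 211 when 1 library was left out. With only the 6 sgB2 libraries there were 198 gene calls and 856 rank calls. For shared regions, 1163 rank calls became 252 when ranked by fold, and 652 to 884 when 1 library was left out. Gained regions numbered 1202, and 418 with −log10 q of at least 5, 722 with lists of equal length and 1331 to 2292 without 1 library. Lost regions numbered 338, and 630 with lists of equal length and 409 to 869 without 1 library; fewer libraries make the rule easier to meet. The single gene that differed between guides became 0 with −log10 q of at least 5, 4 with lists of equal length, 2 with 100 bp added, 0 with 2000 bp added and 0 in all fits without 1 library. Without both the shortest and the longest sgB2 list, an alternative chosen after seeing the data, there were 68 gene calls, 378 rank calls, 1474 gained and 1773 lost regions, and 0 genes that differed between guides, so gains no longer outnumbered losses. The cause of the other moves was not tested.

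Whether equal replicate numbers mark pairs is not stated in the labels. Deviations of gene coverage from the group mean were correlated between sgB2/T618I and sgB2/Empty libraries. The correlations were 0.08, 0.07 and -0.09 for same-numbered libraries and ran from -0.18 to 0.14 for the others, so same-numbered libraries did not stand out. With the replicate block there were 247 gene calls and 1051 rank calls, and the exact sign-flip p of the median width was 0.25, the smallest that 3 pairs allow. Peak number, covered length and median width kept their direction in every setting run. Of the single genes named, 2 turned sign. Asxl1, which did not pass, went from 0.22 to -0.21 with −log10 q of at least 5, -0.051 to 0.45 when 1 library was left out, the lowest without sgB2/Empty replicate 1, and -0.17 without the shortest and the longest list. Csf3r went from 0.50 to -0.13 with 10 kb windows and -0.013 with lists of equal length. No named region changed sign in rank. Of the values of named regions under alternatives 288 lost the call and 648 did not.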

Other observations

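Gained regions stood in clusters in places, a pattern chosen after the values were seen. Taking gained regions at most 50 kb apart together, 18 clusters of at least 3 held 57 of the 1202 gained regions, and lost regions formed none. The largest held 5 gained regions over 100.9 kb between Btg1 and Eea1 (chr10:96274025-96374930), and all 5 also had a peak in all 3 sgNT/T618I libraries, while 2 of them had none in sgNT/Empty. A cluster of 4 lay near Auh, with 3 of the 4 in all sgNT/T618I libraries and 2 of the 4 in no sgNT/Empty library. Btg1 encodes an antiproliferative protein. Clusters of 3 lay beside S100a8 and S100a9, beside Il4ra and Il21r, beside Pfkfb3, which encodes a regulator of glycolysis, and at Il1rl1, the interleukin-33 receptor gene. With more gained than lost regions in all, gained regions have more chances to neighbour each other.

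On the X chromosome 2 of 290 shared regions rose in rank (0.690%) and 9 fell (3.10%), against 4.78% and 3.93% over all chromosomes. Of 703 X regions 10 were gained (1.42%), the lowest share of the 20 chromosomes. On chromosome 15, 38 of 549 shared regions fell (6.92%), the highest share.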
